A study of Mus musculus with 32 samples.

Results

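Oligodendrocytes, the cells that wrap axons of the spinal cord in myelin, arise through a series of stages marked by different genes, and 10 of these genes were followed in the spinal cord of wild-type (WT) and G93A mice. They were chosen by name, with earlier results of these data known, and make up 10 of the 42524 genes of the count table. Each was present in the table with between 31 and 6405 counts in a mouse, and all 10 passed the filter on low counts in every comparison. Pdgfra and Cspg4 mark the surface of precursor cells, Olig1, Olig2 and Sox10 encode transcription factors of the whole lineage, Gpr17 and Bmp4 mark precursors that have committed to differentiate, and Tcf7l2, Enpp6 and Myrf mark newly formed oligodendrocytes.

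RNA was sequenced from 32 mice, 4 in each of 8 groups defined by genotype, treatment and time. WT animals were C57BL/6J littermates, and G93A animals carried the human SOD1 gene with the ALS mutation, a transgene driven by the human SOD1 promoter and active in many cell types rather than in oligodendrocytes alone. Each genotype was either untreated or given OKN-007, a sulfonated derivative of phenyl butyl nitrone, in the drinking water, and was sampled at 90 or 155 days according to the labels. The study's own text gives the earlier age as 95 days. The dose, start of treatment, sex and segment of spinal cord of the sequenced mice were not assigned here. The study describes its experimental animals in general as mostly female. Treated mice of the earlier and later time may also differ in length of treatment. The transgene has no row of its own in the mouse table, so the genotype labels were not checked against it. Separate mice were sampled at each time, and any difference in how the times were collected cannot be told apart from age.

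In the adult central nervous system, precursor cells keep dividing under platelet-derived growth factor (PDGF), which signals through the receptor encoded by Pdgfra. When a precursor leaves the cycle it loses Pdgfra and Cspg4 and passes through a short stage with high Gpr17 and Bmp4. It then switches on Tcf7l2, a transcription factor that works with beta-catenin, the phosphodiesterase gene Enpp6, and Myrf, whose product turns on the myelin genes. In ALS models oligodendrocytes are known to be lost and replaced from dividing precursors.

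The gene counts of a mouse summed to 19701722 in the smallest library and 30138257 in the largest (median 26658755). In the smallest library 3 counts corresponded to 0.152 CPM (counts scaled to library size), a floor that covers counting error only. Levels are given as CPM with TMM scaling over the 32 mice. Markers of other cells moved between groups. At 155 days the summed level of 8 microglia markers was 307 to 376 CPM in untreated WT mice and 1322 to 2389 CPM in untreated G93A mice, that of 8 astrocyte markers was 6067 to 6553 and 14605 to 18508 CPM, and that of 8 neuron markers was 2520 to 3116 and 1435 to 2114 CPM. The summed level of 8 caudal Hox genes, which mark the lower levels of the cord, was 224 to 265 CPM in untreated WT and 59.2 to 201 CPM in untreated G93A mice at that time. At 90 days, WT untreated replicate 3 and G93A untreated replicate 10 stood apart with 1188 and 232 CPM over 8 Schwann cell markers, against 22.2 to 73.8 CPM in the other 30 mice, and their fibroblast markers summed to 208 and 91.4 CPM. No marker list had a gene at 0 in all 4 mice of a group, and the part of these shifts in the results was not tested except where a value is given.

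In untreated WT mice at 90 days, levels per kilobase of exon ran over a wide range. Olig1 was highest at 94.9 ± 8.65 CPM per kilobase (SD, n = 4), followed by Sox10 at 61.1 ± 12.4, Olig2 at 26 ± 0.538, Myrf at 24 ± 2.23, Gpr17 at 15.3 ± 1.68 and Enpp6 at 8.94 ± 0.874. The lowest were Pdgfra at 3.06 ± 0.236, Cspg4 at 1.88 ± 0.348, Bmp4 at 1.08 ± 0.272 and Tcf7l2 at 0.504 ± 0.111 CPM per kilobase. Of the neighbours in this order, only Olig2 and Myrf had ranges over the 4 mice that overlapped. Over the 8 groups the spread between mice of a group (coefficient of variation) had its lowest median for Olig2 at 8.42% and its highest for Sox10 at 18.2%.

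**Figure D1:**
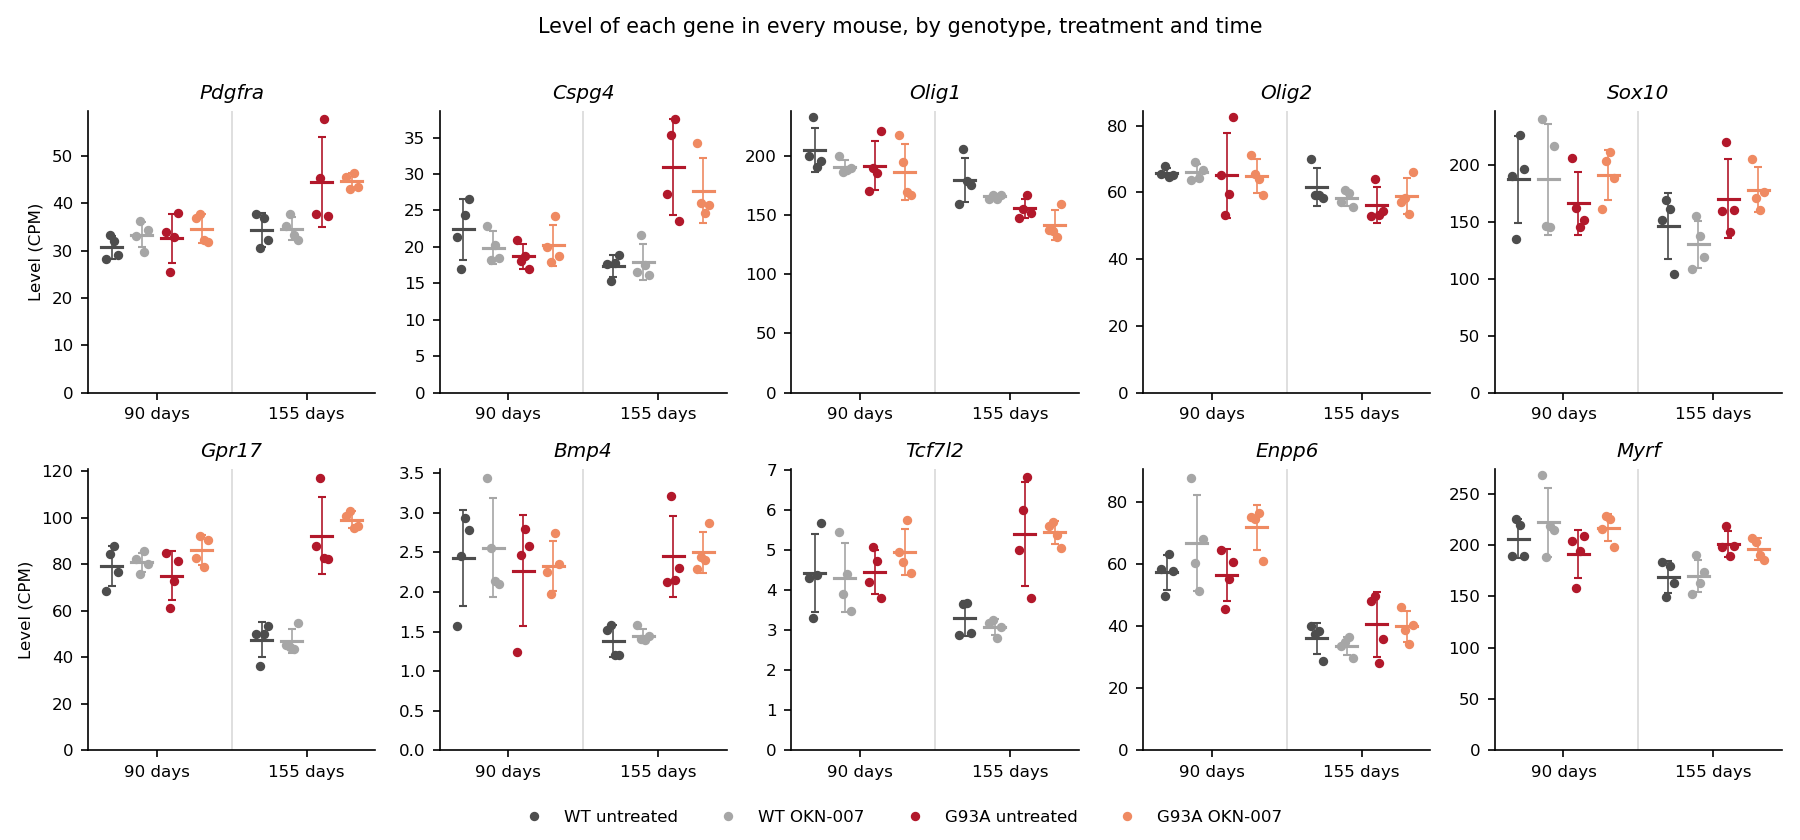
Level of each gene in CPM (vertical axes, starting at 0) in each of the 32 mice, by group at 90 days (left) and 155 days (right). Points are mice, thick lines group means and thin bars SD; the G93A mice at 155 days stand above the WT mice in the Gpr17, Cspg4, Bmp4 and Tcf7l2 panels, and the 4 groups at 90 days overlap in every panel.

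The first comparison asked how these genes differed between the untreated genotypes at 155 days, late in the disease of this model. Gpr17, Cspg4, Bmp4, Tcf7l2, Pdgfra and Myrf were higher in G93A mice, by 1.23- to 2-fold, and none of the 10 genes was lower at the threshold (adjusted p under 0.05, edgeR's quasi-likelihood test with Benjamini-Hochberg adjustment over 18675 genes). Of all genes tested, 39.5% were called in this comparison, 21.3% higher and 18.2% lower. The median log2 fold change was 0.36 over the 10 genes and 0.00015 over all genes. Bulk RNA gives one level for all cells, so a change in the number of lineage cells and a change in RNA per cell cannot be told apart.

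Among the precursor surface genes, Cspg4, which encodes the NG2 proteoglycan, was at 17.6, 15.3, 17.8 and 18.9 CPM in the untreated WT mice at 155 days and at 27.3, 35.4, 37.5 and 23.6 CPM in the untreated G93A mice. Every G93A mouse lay above every WT mouse. The log2 fold change was 0.87 (standard error, SE, 0.14; adjusted p = 5.61e-05 by edgeR). Pdgfra was at 37.7, 30.5, 37 and 32.2 CPM in WT and 37.8, 45.4, 57.9 and 37.4 CPM in G93A mice. Its groups touched, since G93A replicate 12 lay just under WT replicate 1, and replicate 11 was far above the rest. Its log2 fold change was 0.42 (SE 0.11, adjusted p = 0.00409).

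Cspg4 is also made by pericytes and Pdgfra by fibroblasts. Of 8 pericyte and mural markers, 3 were higher and 1 lower in untreated G93A mice at 155 days, and of the 7 fibroblast markers tested, 2 were higher and 0 lower. Tagln rose by 2.23 on the log2 scale (adjusted p = 9e-09) and Kcnj8 by 0.61 (adjusted p = 0.0179). Anpep, a peptidase of pericytes and of some myeloid cells, rose by 2.22 (adjusted p = 4.32e-06). Abcc9 fell by 0.35 (adjusted p = 0.0476), and the pericyte gene Rgs5, not called, averaged 103 CPM in G93A against 128 CPM in WT mice (adjusted p = 0.083). The part of pericytes and fibroblasts in the Cspg4 and Pdgfra differences was not tested.

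The 3 lineage transcription factors did not pass the threshold between untreated genotypes. Olig2, needed to specify the lineage, was at 70, 59.1, 59.2 and 58.2 CPM in WT and 53, 64.1, 53.3 and 54.4 CPM in G93A mice at 155 days. A single mouse in each group was high and the other 3 lay close together, with 3 G93A mice below all WT mice. Its log2 fold change was -0.088 (95% interval -0.25 to 0.075, adjusted p = 0.396), so a rise of the size seen for Cspg4 lies outside the interval.

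Olig1, the partner of Olig2 in differentiation, was at 160, 206, 179 and 176 CPM in WT and 148, 155, 167 and 152 CPM in G93A mice. Here too 3 G93A mice lay below all WT mice, and the log2 fold change was -0.17 (95% interval -0.33 to 0.00056, adjusted p = 0.107). Without WT replicate 1, the lowest WT mouse, Olig1 passed the threshold at -0.22 (adjusted p = 0.0376). Sox10 was at 151, 169, 161 and 104 CPM in WT and 159, 220, 141 and 160 CPM in G93A mice, overlapping groups with a log2 fold change of 0.26 (95% interval -0.045 to 0.57, adjusted p = 0.167).

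Of the genes of committed precursors, Gpr17, which encodes a receptor that slows maturation, showed the largest change of the 10. It was at 50.1, 36.4, 50.3 and 53.6 CPM in WT and 88, 117, 82.6 and 82.2 CPM in G93A mice at 155 days. The lowest G93A mouse was well above the highest WT mouse. The log2 fold change was 1.0 (SE 0.11, adjusted p = 1.18e-06), a 2-fold difference.

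Gpr17 shares 188 exon bases, 3.62% of its own, with Lims2 on the other strand, and the strand setting of the count is not given in the sources used here. Reads in that stretch could therefore not be assigned with certainty, although Lims2 had 16916 counts over the 32 mice against 63884 for Gpr17. Bmp4, which encodes a ligand of the bone morphogenetic protein (BMP) family, was at 1.52, 1.58, 1.2 and 1.21 CPM in WT and 2.13, 3.21, 2.15 and 2.31 CPM in G93A mice. It was a low gene, with 31 to 40 counts in a WT mouse and 53 to 78 in a G93A mouse, but the groups were apart, with a log2 fold change of 0.87 (SE 0.18, adjusted p = 0.00074).

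Among the genes of newly formed oligodendrocytes, Tcf7l2 was at 2.89, 3.66, 3.69 and 2.94 CPM in WT and 5.01, 6.01, 6.83 and 3.81 CPM in G93A mice. The groups did not overlap, though the lowest G93A mouse came close to the highest WT mice. Its log2 fold change was 0.76 (SE 0.16, adjusted p = 0.000853). Myrf was at 183, 149, 180 and 163 CPM in WT and 198, 219, 189 and 199 CPM in G93A mice, again without overlap, and rose by 0.30 on the log2 scale (SE 0.076, adjusted p = 0.00395).

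Enpp6, which encodes a choline-specific phosphodiesterase, was at 40.1, 37.3, 38.3 and 28.8 CPM in WT and 48.1, 49.8, 28 and 35.9 CPM in G93A mice. The G93A mice were split, with replicates 9 and 10 above all WT mice and replicate 11 below all of them. A caudal Hox score, the mean log2(CPM + 1) of the caudal Hox genes, was split in the same way. It was 1.82 in replicates 9 and 10, and 3.9 and 3.86 in replicates 11 and 12, against 4.04 to 4.63 in WT mice. The part of cord level in the Enpp6 split was not tested. The log2 fold change of Enpp6 was 0.21 (95% interval -0.098 to 0.52, adjusted p = 0.273). It passed the threshold without replicate 11 (0.36, adjusted p = 0.035), the G93A mouse with the score nearest to WT.

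In all, 5 of the 10 genes had no overlap between the untreated genotypes at 155 days, against 33.3% of all genes tested. When the caudal Hox score was added to the fit, Gpr17, Cspg4, Bmp4, Tcf7l2 and Pdgfra stayed past the threshold, with adjusted p values up to 0.0287. In that fit Myrf went to 0.22 (adjusted p = 0.107), Sox10 to -0.039 and Enpp6 to -0.27 on the log2 scale. The caudal Hox score ran from 1.82 to 3.9 in the untreated G93A group and from 4.04 to 4.63 in the untreated WT group, without overlap. Cord level and genotype therefore cannot be told apart by this fit.

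The same genotype comparison in mice given OKN-007 used other animals of both genotypes. At 155 days, 7 of the 10 genes were higher in G93A OKN-007 than in WT OKN-007 mice and 0 were lower, against 41.5% of all genes called, 23.3% higher and 18.2% lower. Gpr17 was at 45.4, 44.5, 43.5 and 54.7 CPM in WT OKN-007 and 101, 103, 95.9 and 96.7 CPM in G93A OKN-007 mice, a log2 fold change of 1.15 (SE 0.11, adjusted p = 1.67e-07). The treated G93A mice lay closer together than the untreated ones, and far above the treated WT mice.

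Cspg4 was at 16.5, 21.6, 17.5 and 16.1 CPM in WT OKN-007 and 34.3, 26, 24.7 and 25.7 CPM in G93A OKN-007 mice (log2 fold change 0.70, adjusted p = 0.000388). Tcf7l2 was at 3.19, 3.25, 2.81 and 3.09 CPM and 5.62, 5.71, 5.39 and 5.06 CPM in the same groups (0.89, adjusted p = 0.000164). Both genes were apart between the genotypes in every mouse. Bmp4 was at 1.58, 1.41, 1.39 and 1.44 CPM in WT OKN-007 and 2.29, 2.44, 2.4 and 2.87 CPM in G93A OKN-007 mice (0.85, adjusted p = 0.000724).

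Pdgfra was at 35.3, 37.8, 33.3 and 32.2 CPM in WT OKN-007 and 45.7, 43.1, 46.5 and 43.4 CPM in G93A OKN-007 mice (log2 fold change 0.44, adjusted p = 0.00272). Unlike in the untreated mice, the groups did not touch. Myrf rose by 0.29 on the log2 scale (adjusted p = 0.00539), with 3 of 4 G93A OKN-007 mice above all WT OKN-007 mice.

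Sox10 was at 108, 155, 137 and 119 CPM in WT OKN-007 and 205, 171, 160 and 176 CPM in G93A OKN-007 mice. All treated G93A mice were above all treated WT mice, and Sox10 passed the threshold here (0.53, SE 0.15, adjusted p = 0.00702). With the caudal Hox score in the fit, 5 genes passed, without Sox10 and Myrf. The score again did not overlap, at 2.67 to 3.78 in treated G93A and 4.5 to 4.78 in treated WT mice. The genotype by treatment interaction of Sox10 was 0.27 (95% interval -0.17 to 0.71, adjusted p = 1), so its genotype difference was not shown to depend on treatment.

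Olig1 was lower in all 4 treated G93A mice (138, 137, 132 and 160 CPM) than in all 4 treated WT mice (164, 167, 164 and 167 CPM), with an adjusted p of 0.142 by edgeR. Olig2 had a log2 fold change of 0.084 (adjusted p = 0.411) and Enpp6 of 0.32 (adjusted p = 0.0951). Including Olig1, 7 of the 10 genes had no overlap between the treated genotypes, against 45.4% of all genes.

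**Figure D2:**
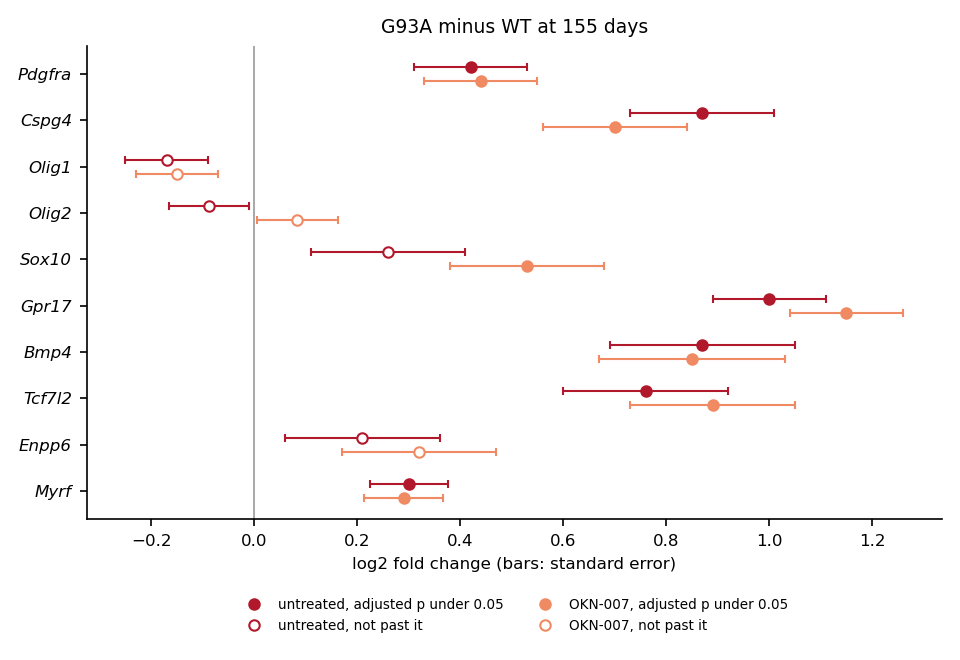
Log2 fold change of each gene between G93A and WT mice at 155 days (horizontal axis; bars are standard errors from edgeR), in untreated mice and in mice given OKN-007, with 4 mice per group. Filled points have an adjusted p under 0.05; Gpr17 lies farthest right in both pairs, at 1.0 and 1.15, and Olig1 and Olig2 have unfilled points in both.

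At 90 days, 0 of the 10 genes were called between the untreated genotypes by edgeR, as were 0% of all 18899 genes tested. None of the 10 had an unadjusted p under 0.05, which 5.96% of all genes had. Gpr17 was at 68.5, 84.5, 88.1 and 76.6 CPM in WT and 84.9, 61.4, 72.7 and 81.6 CPM in G93A mice (log2 fold change -0.059, 95% interval -0.25 to 0.13). The interval leaves out a difference of the size seen at 155 days.

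Cspg4, at 21.4, 17, 24.4 and 26.6 CPM in WT and 21, 18.1, 18.7 and 16.9 CPM in G93A mice at 90 days, had the log2 fold change farthest from 0 (-0.24, 95% interval -0.51 to 0.034). The groups overlapped. Bmp4 was measured less precisely, at -0.072 (95% interval -0.60 to 0.45). In the treated mice at 90 days the 10 log2 fold changes between genotypes ran from -0.14 to 0.20, with 0 called by edgeR (0% of all genes) and 0 at an unadjusted p under 0.05 (3.95% of all genes). With the treatments averaged, 0 of the 10 were called and 0.0265% of all genes were (0.0159% higher and 0.0106% lower in G93A), and 0 of the 10 and 6.61% of all genes had an unadjusted p under 0.05. DESeq2 also called 0 of the 10 in each of these 3 comparisons. These counts stayed at 0 without the pair of libraries high in Schwann cell markers.

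The change with time was compared in untreated mice of each genotype in a fit of all 32 mice over 19829 genes. In WT mice, Gpr17, Enpp6, Bmp4 and Myrf were lower at 155 than at 90 days and 0 of the 10 were higher, against 24.9% of all genes called, 15.3% higher and 9.61% lower. Other marker sums differed with time in these mice: caudal Hox genes summed to 148 to 216 CPM at 90 days and 224 to 265 CPM at 155 days (0 of 8 genes called), neuron markers to 2095 to 2449 and 2520 to 3116 CPM (3 of 8 genes called higher), and astrocyte markers to 7251 to 8196 and 6067 to 6553 CPM (1 called higher, 2 lower). Of the Schwann cell markers, 4 of the 7 tested were lower at 155 days. With the caudal Hox score in the fit the same 4 genes were called, and without the pair of 90-day libraries high in Schwann cell markers Gpr17, Enpp6 and Bmp4 were. The part of the neuron and astrocyte markers was not tested. Gpr17 went from a mean of 79.4 ± 8.71 to 47.6 ± 7.62 CPM (SD, n = 4 each), with all mice at 155 days below all mice at 90 days. The log2 fold change was -0.73 (SE 0.11, adjusted p = 0.000119).

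Enpp6 was at 58.4, 49.8, 63.3 and 57.6 CPM in the WT mice at 90 days, all above the 4 at 155 days, and fell by 0.66 on the log2 scale (SE 0.15, adjusted p = 0.00222). Bmp4 was at 1.57, 2.45, 2.93 and 2.78 CPM at 90 days, with replicate 1 within the range at 155 days, and fell by 0.81 (SE 0.22, adjusted p = 0.00755). Myrf was at 189, 225, 220 and 189 CPM at 90 days and fell by 0.28 (adjusted p = 0.0256). Pdgfra, at 28.3, 33.3, 32.1 and 29.2 CPM at 90 days, was the only one of the 10 with a positive log2 fold change in WT mice (0.17, adjusted p = 0.265). Cspg4 (-0.35, adjusted p = 0.056) and Tcf7l2 (-0.41, adjusted p = 0.0636) just missed the threshold. When each mouse was left out, Gpr17, Enpp6 and Bmp4 were called in all 8 fits and Myrf was lost in 4, those without replicates 2 or 3 at 90 days or replicates 2 or 4 at 155 days.

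Untreated G93A mice differed from this pattern in several genes. Cspg4, Pdgfra and Gpr17 were higher at 155 than at 90 days, and Enpp6 and Olig1 were lower, against 33.7% of all genes called, 21% higher and 12.8% lower. Over the same time in G93A mice the microglia markers went from 364 to 558 CPM to 1322 to 2389 CPM, the astrocyte markers from 7623 to 9656 CPM to 14605 to 18508 CPM and the neuron markers from 1790 to 2636 CPM to 1435 to 2114 CPM, and the part of these in the result was not tested. With the caudal Hox score in the fit, Gpr17 was no longer called and Olig2 was. Cspg4 rose by 0.75 on the log2 scale (SE 0.13, adjusted p = 6e-05), with all 4 mice at 155 days above all 4 at 90 days. Pdgfra was at 33.9, 25.4, 33 and 38 CPM at 90 days and rose by 0.47 (SE 0.11, adjusted p = 0.001). Gpr17 rose by 0.32 (SE 0.11, adjusted p = 0.0224), with 2 of the 4 mice at 155 days above all mice at 90 days. The Gpr17 call was lost in 3 of the 8 fits that left out a mouse, those without replicates 10 or 11 at 90 days or replicate 10 at 155 days.

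Enpp6 was at 64.6, 45.4, 55 and 60.5 CPM in the untreated G93A mice at 90 days and fell by 0.46 (adjusted p = 0.0179), a call lost without replicate 9 at 90 days or replicate 11 at 155 days. It was lower at 155 days in both genotypes. Olig1 was at 171, 190, 186 and 221 CPM at 90 days, above all 4 mice at 155 days, and fell by 0.28 (adjusted p = 0.0157), a call lost without replicate 12 at 90 days. Tcf7l2 was at 4.2, 5.09, 4.73 and 3.82 CPM at 90 days and had a log2 fold change of 0.30 (adjusted p = 0.159), and Bmp4 was at 1.24, 2.47, 2.8 and 2.58 CPM with 0.12 (adjusted p = 0.688).

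**Figure D3:**
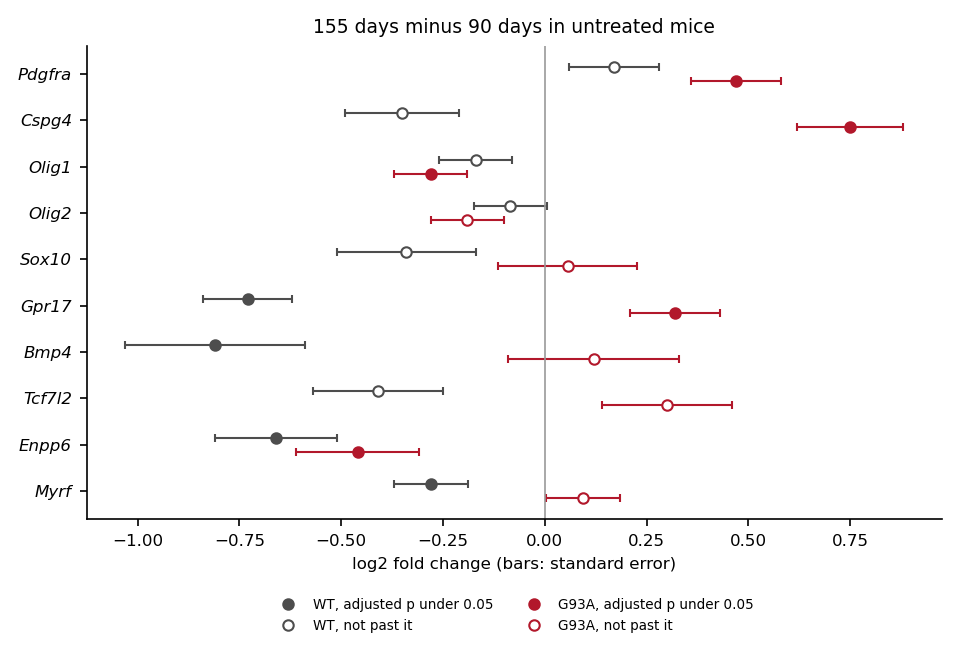
Log2 fold change of each gene from 90 to 155 days (horizontal axis; bars are standard errors from edgeR) in untreated WT and untreated G93A mice, with 4 mice per group and time. Filled points have an adjusted p under 0.05; Gpr17 lies at -0.73 in WT and 0.32 in G93A mice, while Enpp6 lies left of 0 in both.

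The difference between these changes was tested as the G93A minus WT difference at 155 days less that at 90 days, in untreated mice. It passed the threshold for 5 of the 10 genes, all in the direction of G93A, against 21.2% of all genes called and 12.9% in that direction. Cspg4 had a value of 1.10 on the log2 scale (SE 0.19, adjusted p = 8.02e-05) and Gpr17 of 1.05 (SE 0.15, adjusted p = 6.93e-06). Tcf7l2 followed at 0.71 (adjusted p = 0.0264), Bmp4 at 0.93 (adjusted p = 0.0273) and Myrf at 0.37 (adjusted p = 0.0375). For Enpp6 it was 0.20 (95% interval -0.23 to 0.63) and for Olig2 -0.11 (-0.37 to 0.15). Cspg4 and Gpr17 were called in all 16 fits that left out a mouse, whereas Bmp4 was lost in 5, Tcf7l2 in 5 and Myrf in 7, and all 3 were lost without G93A untreated replicate 10 at 155 days. With no filter on low counts the count was 2, as Tcf7l2 (adjusted p = 0.0577), Bmp4 (0.0605) and Myrf (0.0984) missed the threshold. With the caudal Hox score in the fit it was 3, with Tcf7l2 at an adjusted p of 0.0286 and without Bmp4 (0.0613) and Myrf (0.131).

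The WT mice at 90 days included replicate 3, high in Schwann cell markers, and the G93A mice replicate 10. Sox10 is also made by Schwann cells, and replicate 3 had the highest Sox10 level of its group, 226 CPM, beside 190, 135 and 196 CPM. Without both libraries, Cspg4 (1.05, adjusted p = 0.00069), Gpr17 (0.92, adjusted p = 0.00012) and Tcf7l2 (0.79, adjusted p = 0.0275) still passed the interaction test, and Bmp4 (0.88, adjusted p = 0.0646) and Myrf (0.27, adjusted p = 0.169) did not. The WT change with time then held for Gpr17 (-0.67), Enpp6 (-0.60) and Bmp4 (-0.70) and missed the threshold for Myrf (-0.24, adjusted p = 0.0648). In G93A mice it was called for Cspg4 (0.74), Pdgfra (0.38), Enpp6 (-0.53), Olig1 (-0.27) and Olig2 (-0.27), and Gpr17 missed it (0.25, adjusted p = 0.105).

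Whether OKN-007 moved these genes was asked within each genotype and time. By edgeR, 0 of the 10 genes were called in any of the 4 comparisons of OKN-007 with untreated mice or in either genotype by treatment interaction, and 0% of all genes were called in each. DESeq2 also called 0 of the 10 in each. In G93A mice at 155 days the 10 log2 fold changes between OKN-007 and untreated ran from -0.15 to 0.11. Gpr17 had a log2 fold change of 0.11 (95% interval -0.12 to 0.35), Cspg4 of -0.15 (-0.43 to 0.13), Bmp4 of 0.037 (-0.32 to 0.39), Tcf7l2 of 0.022 (-0.30 to 0.34) and Pdgfra of 0.011 (-0.21 to 0.23). These intervals leave room for changes of up to about the size of the Pdgfra difference between genotypes.

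Across these comparisons, an unadjusted p under 0.05 was met by 4.04% of all genes in G93A mice at 155 days, 5.56% in G93A mice at 90 days, 2.94% in WT mice at 155 days and 4.07% in WT mice at 90 days, and for the interactions by 2.34% at 155 days and 2.81% at 90 days. Of the 10 genes, 1 met it in 1 comparison. This was Enpp6 in G93A mice at 90 days, at 75.1, 74.5, 76.4 and 60.8 CPM with OKN-007 against 64.6, 45.4, 55 and 60.5 CPM untreated (log2 fold change 0.33, unadjusted p = 0.0229 and adjusted p = 0.837 by edgeR). Treated mice 13, 14 and 15 lay above all untreated mice and mouse 16 did not. Enpp6 in WT mice at 90 days was at 87.5, 60.2, 51.4 and 68 CPM with OKN-007 (0.23, 95% interval -0.052 to 0.51).

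Other genes of the same stages were read from lists for untreated G93A against WT mice at 155 days, where 21.3% of all genes were higher and 18.2% lower. Of 15 further precursor genes, 8 were higher and 1 lower, with a median log2 fold change of 0.32. Matn4, which encodes a matrix protein, rose by 1.04 (24.8 against 12.4 CPM, adjusted p = 4.66e-06) and Ednrb, an endothelin receptor that astrocytes also make, by 0.99 (adjusted p = 1.82e-07), while the synaptic adhesion gene Lrrtm3, also neuronal, fell by 0.46 (adjusted p = 0.00178).

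Of 15 further genes of newly formed oligodendrocytes, 9 were higher and 0 lower, with a median of 0.55. Arpc1b, an actin-nucleating subunit that microglia also make, rose by 2.60 (adjusted p = 2.26e-10), and the long noncoding RNA 9630013A20Rik by 1.89, from 1.43 to 5.13 CPM (adjusted p = 1e-05). Of 16 genes of myelinating oligodendrocytes, 5 were higher and 0 lower, with a median of 0.022. The genes that moved most were the protease gene Klk6 (1.86, adjusted p = 8.42e-08) and the lipocalin gene Apod (1.70, adjusted p = 0.000197). Neither is a structural myelin gene. The myelin genes Cldn11 (0.9, adjusted p = 1.64e-07) and Mag (0.25, adjusted p = 0.00973) were also higher. So was Nkx6-2 (0.62, adjusted p = 0.000593). Mbp averaged 10403 CPM in G93A against 10152 CPM in WT mice (adjusted p = 0.451).

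With time, in untreated WT mice 13 of the 16 myelinating genes and 9 of the 15 genes of newly formed cells were lower at 155 than at 90 days, and 0 of either list were higher, beside 9.61% lower and 15.3% higher among all genes. Of the 15 precursor genes, 3 were higher, a share near that of all genes, and 3 lower. In untreated G93A mice 10 myelinating genes were lower and 2 higher (Apod and Klk6), while 7 genes of newly formed cells were higher and 1 lower, and 9 precursor genes were higher and 3 lower, beside 21% higher and 12.8% lower among all genes. The interaction was called in the direction of G93A for 9 of the 15 genes of newly formed cells, 4 of the 15 precursor genes and 4 of the 16 myelinating genes, and in the other direction for 1 precursor gene, Lrrtm3, beside 12.9% and 8.34% of all genes.

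**Figure D4:**
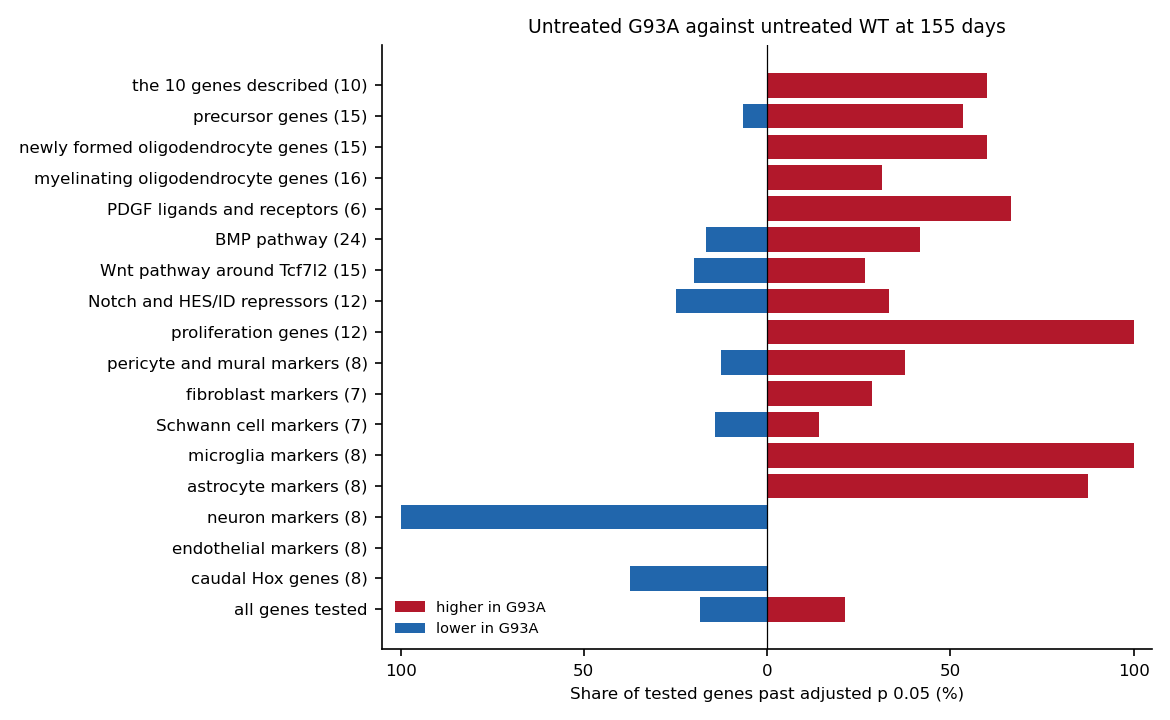
Share of the tested genes of each list (horizontal axis, percent; number tested in brackets) that were higher (right) or lower (left) in untreated G93A than in untreated WT mice at 155 days, at an adjusted p under 0.05 by edgeR. The 10 genes described and the newly formed list reach 60% higher with 0 lower, proliferation and microglia lists 100% higher, and the neuron list 100% lower; all genes tested are at 21.3% and 18.2%.

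Signals that act on these stages were read in the same comparison. Of 6 PDGF genes, 4 were higher and 0 lower. The receptor-like gene Pdgfrl rose by 1.0 and the ligand gene Pdgfb by 0.62 (adjusted p = 0.00359), while Pdgfa, the main ligand for the receptor on precursors, averaged 58.2 CPM in G93A against 51.9 CPM in WT mice (adjusted p = 0.171). Of 24 BMP pathway genes, 10 were higher and 4 lower. The inhibitor of differentiation gene Id3, a BMP target, rose by 1.17 (adjusted p = 4.1e-05) and the ligand gene Bmp6 by 1.09, and the BMP antagonist Grem1 fell by 0.61 (adjusted p = 0.00576). Astrocytes also make Id3.

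Of the 15 genes of the Wnt pathway around Tcf7l2 that were tested, 4 were higher and 3 lower. Tcf7l1, a paralog of Tcf7l2, rose by 0.71 (adjusted p = 0.00203), the R-spondin receptor gene Lgr6 fell by 1.93 (adjusted p = 4.27e-07), and the beta-catenin target Axin2 averaged 13.5 CPM in G93A against 15.5 CPM in WT mice (adjusted p = 0.366). Of 12 genes of the Notch pathway and its repressors, 4 were higher and 3 lower. Notch3, a receptor of mural cells, rose by 0.75 and Hes5, a Notch target, fell by 0.86 (adjusted p = 0.0121). All 12 proliferation genes were higher, from Pcna at 0.52 to Mki67 at 3.54 on the log2 scale, beside the rise of the microglia markers, and which cells divided was not tested.

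The 10 genes did not vary as one block. Over the 32 mice, the pair with the highest Pearson correlation of log2(CPM + 1) was Cspg4 and Tcf7l2 at 0.77, and Pdgfra and Olig1 had the lowest at -0.54, values that share the group differences. Over deviations from the 8 group means, Sox10 and Enpp6 were at 0.72 and Cspg4 and Tcf7l2 at 0.70. Outside the 10 genes, the closest to Gpr17 over the 32 mice was Pdia4 at 0.911, to Cspg4 Flna at 0.926, to Enpp6 Jpt2 at 0.964 and to Sox10 Nkx2-2 at 0.900. Within groups, Nkx2-2 was again closest to Sox10 at 0.932, while the closest to Gpr17 was Kdm5c at 0.856 and to Enpp6 Mob3b at 0.905. Over the 32 mice, the closest to Tcf7l2 was Syngr2 at 0.912 and to Bmp4 Rinl at 0.816. Within groups, Tcf7l2 was nearest to Gm42466 (0.816), Myo1g (0.808) and Psrc1 (0.807). Bmp4 was nearest to 2810025M15Rik (0.648), Poc1a (0.626) and Adgre1 (0.618). The part of other cell types in the Tcf7l2 and Bmp4 differences was not tested. These correlations describe libraries that share depth and tissue piece and carry no test.

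Upstream sequence was read for the genes with a RefSeq promoter entry (GRCm38.p6), 6 of the 10: Pdgfra, Cspg4, Olig2, Bmp4, Tcf7l2 and Enpp6. Olig1, Sox10, Gpr17 and Myrf had no entry. Shown are the 3 with the largest rise at 155 days, and Enpp6, which was not called, each 5′ to 3′ on the gene's strand and ending before the first annotated transcript start. Capitals mark the letters ACAAAG or ACAATG or their reverse complements, the core letters that SOX proteins such as Sox10 bind.
Cspg4, chr9:56864854-56865032, plus strand: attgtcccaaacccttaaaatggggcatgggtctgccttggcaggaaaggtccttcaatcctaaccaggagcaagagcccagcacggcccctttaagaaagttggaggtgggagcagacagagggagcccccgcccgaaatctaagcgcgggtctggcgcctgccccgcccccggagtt
Bmp4, chr14:46390670-46390919, minus strand: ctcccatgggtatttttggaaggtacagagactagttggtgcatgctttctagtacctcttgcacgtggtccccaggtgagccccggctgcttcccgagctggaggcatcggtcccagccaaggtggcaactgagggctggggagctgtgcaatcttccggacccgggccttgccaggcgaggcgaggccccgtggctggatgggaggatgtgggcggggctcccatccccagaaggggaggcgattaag
Tcf7l2, chr19:55741560-55741809, plus strand: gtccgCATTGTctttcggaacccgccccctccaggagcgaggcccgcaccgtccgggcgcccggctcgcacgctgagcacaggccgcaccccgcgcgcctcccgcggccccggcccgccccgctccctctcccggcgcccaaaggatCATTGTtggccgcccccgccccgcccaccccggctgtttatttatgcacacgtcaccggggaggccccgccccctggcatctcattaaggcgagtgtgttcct
Enpp6, chr8:46986637-46986886, plus strand: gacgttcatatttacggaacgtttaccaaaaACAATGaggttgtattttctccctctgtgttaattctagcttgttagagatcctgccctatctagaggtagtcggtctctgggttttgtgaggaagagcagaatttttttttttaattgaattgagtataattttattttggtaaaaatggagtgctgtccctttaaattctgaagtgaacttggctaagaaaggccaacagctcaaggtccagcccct
In the 250 bases before the RefSeq start, Tcf7l2, Enpp6 and Olig2 held at least 1 match and Pdgfra, Cspg4 and Bmp4 held none, where 25.2% of 32851 promoter entries held one. That share counts entries and not genes, and Tcf7l2 had 2 entries, each with a match, of which the first is shown. The matches thus lay upstream of the RefSeq start of a gene that rose and of 2 that were not called. For Olig2, the 157 bases before the first annotated transcript start held 0 matches, so its match lay at least partly past that start. A match describes letters in this window and not a binding site.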

How the data were processed

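Spinal cord RNA of 32 mice was sequenced from stranded mRNA libraries. The authors deposited raw counts per gene, not normalized. Their methods name Trimmomatic, STAR, HTSeq, GENCODE M10 and GRCm38, whereas the submitters' processing notes name STAR, featureCounts and GRCm39. Because 1306 gene IDs are numbered past the last of GENCODE M21, its gene positions are mostly not printed. They set where upstream windows were cut, which gave the printed end of the Cspg4 window. This release also gave symbols for 41203 of 42524 IDs (96.9%), exon lengths and exon overlaps, which may differ from the annotation counted.

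The 10 genes and the other lists were chosen with earlier results of these data known. Genes passing filterByExpr were fitted in edgeR 4.0.16 (R 4.3.3) with TMM factors, estimateDisp, glmQLFit and glmQLFTest, 16 mice as 4 groups at each time and all 32 for contrasts across times. Tests are two-sided, adjusted over all genes tested. Standard errors were derived from the F statistic, and 95% intervals from these with the total degrees of freedom of the test. CPM per kilobase used the M21 exon length. The fits were tested on simulated data.

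Of each other list, up to 2 genes with the largest and 2 with the smallest change among those called in untreated mice at 155 days were eligible to be named. Anpep, Rgs5, Pdgfa, Mbp, Axin2, Tagln, Kcnj8, Abcc9, Cldn11, Nkx6-2 and Mag were chosen after their values were seen. Likeness names genes with the highest correlation. Replicates are separate mice per the labels. Labels name no sequencing batch, so no within-batch values could be given. Alternatives were DESeq2 1.42.0, a likelihood ratio test, RLE factors, other filters and thresholds, the compared groups only, all 32 mice, a caudal Hox covariate, a replicate block and leaving out each mouse. Leaving out both libraries high in Schwann cell markers was added after seeing the data.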

Additional observations from a re-analysis of the deposited data

Results flagged for a closer look

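Of the 80 groups of 4 mice (10 genes in 8 groups), 7 held a mouse whose gap to the nearest of the others was large for the range of its group by Dixon's criterion, where chance gives about 1 in 20, or 4. Cspg4 was at 34.3 CPM in G93A OKN-007 replicate 13 at 155 days, with the next mouse at 26 CPM. Olig2 was at 70 CPM in WT untreated replicate 1 at 155 days (next 59.2 CPM). G93A untreated replicate 10 at 155 days was the highest mouse of its group for Olig2 (64.1 CPM, next 54.4), Gpr17 (117 CPM, next 88) and Bmp4 (3.21 CPM, next 2.31). Gpr17 was at 54.7 CPM in WT OKN-007 replicate 8 at 155 days (next 45.4 CPM), and Enpp6 was lowest at 60.8 CPM in G93A OKN-007 replicate 16 at 90 days (next 74.5 CPM).

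The difference between untreated G93A and WT mice was itself different at 155 and 90 days for 5 genes by edgeR's interaction test: Cspg4 by 1.10 on the log2 scale (adjusted p = 8.02e-05), Gpr17 by 1.05 (adjusted p = 6.93e-06), Bmp4 by 0.93 (adjusted p = 0.0273), Tcf7l2 by 0.71 (adjusted p = 0.0264) and Myrf by 0.37 (adjusted p = 0.0375). Against 12.9% of all genes in this direction, these are 5 of 10. The count was 2 with no filter on low counts (Cspg4 and Gpr17) and 3 with the caudal Hox covariate or without both libraries high in Schwann cell markers (Cspg4, Gpr17 and Tcf7l2).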

How the results depend on the processing

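The number of the 10 genes called stayed within 1.5 times its value in 278 of 286 alternative counts. Most of these counts belong to comparisons where none of the 10 was called, so this share does not measure how firm the calls are. Counts in this section are given without the share of all genes called under the same setting, so they show only how the calls moved. With a fold of at least 1.5 also required, 4 genes were called between treated genotypes at 155 days and 1 with time in untreated G93A mice. Between untreated genotypes at 155 days, that rule left out Pdgfra (1.34-fold) and Myrf (1.23-fold), a loss that still counts as within 1.5 times. The interaction of genotype and time was called for 2 genes with no filter on low counts (Cspg4 and Gpr17), for 3 with the caudal Hox covariate (these and Tcf7l2) and for the same 3 without both libraries high in Schwann cell markers. It ranged from 2 to 5 when each mouse was left out, with 2 without G93A untreated 155 days replicate 10, and 3 without WT untreated 90 days replicate 3 or WT untreated 155 days replicate 4. Olig1 was called between treated genotypes without G93A OKN-007 155 days replicate 16. Leaving out each mouse gave 6 to 7 genes between untreated and 7 to 8 between treated genotypes at 155 days, 3 to 6 with time in WT and 4 to 5 in G93A mice.

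The caudal Hox covariate changed the sign, between untreated genotypes at 155 days, of Sox10 (-0.039) and Enpp6 (-0.27), and for OKN-007 in G93A mice at 155 days of Pdgfra (-0.0092) and Enpp6 (0.15). For OKN-007 in G93A mice at 90 days, Olig2 was at 0.014 with no filter, and Pdgfra at -0.012 without both Schwann-high libraries; the causes were not tested. None of these OKN-007 values was called in any fit. Leaving out 1 mouse also changed signs of OKN-007 values in G93A mice, on the log2 scale: at 155 days Pdgfra ranged from -0.063 to 0.16, Sox10 from -0.0069 to 0.21, Bmp4 from -0.032 to 0.18, Tcf7l2 from -0.12 to 0.15, Enpp6 from -0.16 to 0.087 and Myrf from -0.061 to 0.0051, and at 90 days Pdgfra from -0.012 to 0.15, Olig1 from -0.13 to 0.013, Olig2 from -0.09 to 0.10 and Bmp4 from -0.19 to 0.14.

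Numbers recur across times but come from different mice; deviations of same-numbered mice correlated at -0.221 to 0.26, so no pairing was assumed. With the replicate block, 4, 4 and 4 genes were called for the WT change with time, the G93A change and the interaction, against 4, 5 and 5. Bmp4 and Tcf7l2, with 31 to 168 counts in a mouse, were limited most by depth.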
